A study of Homo sapiens with 9 samples.

Results

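The basal keratins KRT5, KRT14 and KRT15 and the simple-epithelial keratins KRT7, KRT8, KRT18 and KRT19 were followed across CAL27 cells, an established line from a human tongue squamous cell carcinoma. These 7 genes were taken by symbol from the 78894 gene identifiers of the series, and all 7 were found and passed the filter on low values. Its title is about a functional enhancer in squamous carcinoma of the head and neck, and CRISPR-edited CAL27 cells were set against Control cells of the same line. There are 3 Control samples by the labels and 2 of each knockout, A2ko, A8ko and C9ko, all without treatment and grown in the same serum-containing medium. The labels name neither the edited sequence nor the meaning of the 3 names, and do not say whether a knockout is 1 clone or a pool, so no targeted gene could be checked. They also do not say that samples of a group came from separate cultures, so p-values measure the spread between these samples, which may be technical.

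Values are TPM, the share of a gene's transcripts in the library after correction for transcript length, so levels can be compared between genes, while sequencing depth is unknown. The A2ko pair of files held identical values for all 78894 identifiers, and so did the A8ko pair. The header of the replicate 1 file in each pair named the replicate 2 library, so each pair was counted as 1 library, replicate 2. This left 7 distinct libraries, and A2ko and A8ko have 1 library each and no test. Each library had 15556 to 16716 genes at 1 TPM or more. Mitochondrially encoded transcripts took 23.1% to 26.9% of the TPM in Control and 17.9% to 25.2% in the knockouts, lowest in C9ko. With these transcripts left out of the total, all 7 keratins kept the direction and call given below for C9ko, and 0 of the 7 were called in all knockouts, as with them.

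Keratins build the intermediate filaments of epithelial cells. A filament is an obligate partnership of an acidic type I keratin and a basic or neutral type II keratin, and each layer or tissue uses its own pairs. The dividing basal layer of stratified epithelium uses the type II keratin KRT5 with the type I keratins KRT14 and, in part of the layer, KRT15. Single-layered epithelia use the type II keratins KRT8 and KRT7 with the type I keratins KRT18 and KRT19, and squamous carcinomas can carry keratins of both kinds.

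The genes lie in the keratin gene clusters of chromosomes 12 and 17, where the GENCODE 29 annotation of GRCh38 gives all 7 as protein coding. On chromosome 12 are KRT7 (chr12:52232520-52252186, plus strand), KRT5 (chr12:52514575-52520687, minus strand), KRT8 (chr12:52897187-52949954, minus strand) and KRT18 (chr12:52948871-52952901, plus strand). KRT18 is a type I keratin that lies next to KRT8 in the type II cluster. On chromosome 17, all on the minus strand, are KRT15 (chr17:41513743-41522529), KRT19 (chr17:41523617-41528308) and KRT14 (chr17:41582279-41586921).

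For KRT5 and KRT8 1 promoter window each is shown, because they are the 2 of the 7 in the promoter table used here. Both are type II genes of the same cluster, and they moved in opposite directions in C9ko. Each sequence is the 250 bases before the start site given by RefSeq (GRCh38.p14, minus strand, 5′ to 3′), at chr12:52520395-52520644 for KRT5 and chr12:52926470-52926719 for KRT8. Capitals mark matches to 2 motifs on either strand, ATAAA (TATA-like) and CACCC (bound by KLF factors).
KRT5 promoter: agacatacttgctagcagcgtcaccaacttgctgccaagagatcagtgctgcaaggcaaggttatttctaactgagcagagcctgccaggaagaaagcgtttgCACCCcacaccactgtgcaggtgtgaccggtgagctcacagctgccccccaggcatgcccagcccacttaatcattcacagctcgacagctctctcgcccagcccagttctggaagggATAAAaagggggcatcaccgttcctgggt
KRT8 promoter: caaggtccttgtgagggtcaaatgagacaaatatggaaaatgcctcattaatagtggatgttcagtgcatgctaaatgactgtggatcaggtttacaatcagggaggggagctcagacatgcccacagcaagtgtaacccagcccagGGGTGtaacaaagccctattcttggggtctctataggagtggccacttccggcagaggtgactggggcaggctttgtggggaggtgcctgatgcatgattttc
The KRT5 window held ATAAA once, starting 29 bases before the start site, and the KRT8 window held none, against 32.7% of all 35116 promoter windows of that length. CACCC was found once in each, 147 bases before the start in KRT5 and, as GGGTG, 103 bases before it in KRT8, against 54.7% of windows. Neither window held TGANTCA (AP-1, in 6.57% of windows), GCCNNNGGC (AP-2, in 19.8%) or GGGCGG (Sp1, in 42.6%). These matches are descriptions of the letters in 1 window per gene, and KRT8 has 17 annotated transcript starts and KRT5 has 10. Both windows lie inside the annotated gene, whose upstream end is chr12:52520687 for KRT5 and, much farther from the window, chr12:52949954 for KRT8. Each window therefore precedes 1 start among several, and the letters before the other starts are not described. No window of KRT14, KRT15, KRT7, KRT18 or KRT19 was used here.

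KRT5, the type II keratin of basal keratinocytes, was the most abundant of the 7 in every library. It was listed at 8716, 9147 and 8887 TPM in Control, 3082 TPM in A2ko, 4237 TPM in A8ko, and 5428 and 5232 TPM in C9ko. All 4 knockout libraries were below all Control libraries, whose mean was 8917 ± 217 TPM (SD, n = 3). The share of all genes with no overlap between knockouts and Control was not counted, here or for the genes below. The Control mean was 2.89-fold the A2ko level, 2.10-fold the A8ko level and 1.67-fold the C9ko mean. KRT5 ranked 10 to 11 among all genes in Control, 24 in A2ko, 19 in A8ko and 14 to 15 in C9ko.

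KRT14, the type I partner of KRT5, stood at 3549, 3796 and 4286 TPM in Control. It was at 313 TPM in A2ko, 867 TPM in A8ko, and 1283 and 1247 TPM in C9ko. Again no knockout library overlapped Control, which averaged 3877 ± 375 TPM (SD, n = 3). The Control mean was 12.4-fold the A2ko level, 4.47-fold the A8ko level and 3.07-fold the C9ko mean. In A2ko a difference as large as that of KRT14 on the log2 scale was seen in 0.0702% of the 17100 tested genes.

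KRT15, a second basal type I keratin that also marks stem cell niches of the hair follicle, was at 1886.5, 1803 and 1925 TPM in Control. It was at 1497 TPM in A2ko, 266 TPM in A8ko, and 412 and 419 TPM in C9ko. The order differed from that for KRT14, with A2ko nearest to Control and A8ko farthest, though all lay below every Control library. The Control mean of 1871 ± 62.2 TPM (SD, n = 3) was 1.25-fold the A2ko level, 7.05-fold the A8ko level and 4.50-fold the C9ko mean. In A8ko 0.251% of tested genes differed by as much as KRT15, but in A2ko 41.2% did.

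KRT8, the main type II keratin of simple epithelia, was at 218, 237 and 251 TPM in Control. It was at 224 TPM in A2ko, 314 TPM in A8ko, and 559 and 512 TPM in C9ko. A2ko lay within the Control range, and the A8ko and C9ko libraries lay above it. Relative to the Control mean of 235 ± 16.4 TPM (SD, n = 3), KRT8 was 1.33-fold in A8ko and 2.28-fold in C9ko. In A8ko 25.5% of tested genes differed by as much as KRT8.

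KRT18, the type I partner of KRT8, was at 246, 219.6 and 224 TPM in Control. It was at 224 TPM in A2ko, 477 TPM in A8ko, and 569.6 and 553 TPM in C9ko. As for KRT8, A2ko was within the Control range and the other knockouts were above it. Relative to the Control mean of 229.8 ± 14.1 TPM (SD, n = 3), KRT18 was 2.08-fold in A8ko and 2.44-fold in C9ko.

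KRT7, a type II keratin of glandular and ductal epithelia, was low in Control, at 5.80, 6.96 and 6.33 TPM. It was at 4.35 TPM in A2ko, 14.8 TPM in A8ko, and 35.0 and 30.2 TPM in C9ko. A2ko was below all Control libraries, and the A8ko and C9ko libraries were above them. In A2ko 26.5% of tested genes differed by as much as KRT7. The C9ko mean was 5.12-fold and the A8ko level 2.33-fold the Control mean of 6.36 ± 0.580 TPM (SD, n = 3), while the Control mean was 1.46-fold the A2ko level.

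KRT19, the smallest type I keratin and one of simple and ductal epithelia, was the least abundant of the 7 in every Control library, at 3.46, 3.01 and 4.01 TPM. It was at 5.59 TPM in A2ko, 1.15 TPM in A8ko, and 1.96 and 2.10 TPM in C9ko. Its direction was the opposite of that of KRT7 in each knockout, with A2ko above all Control libraries and A8ko and C9ko below them. The A2ko level was 1.60-fold the Control mean of 3.495 ± 0.498 TPM (SD, n = 3), which was itself 3.04-fold the A8ko level and 1.72-fold the C9ko mean. At 1 to 6 TPM these differences rest on low values, and in A2ko 19.4% of tested genes differed by as much as KRT19.

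**Figure D1:**
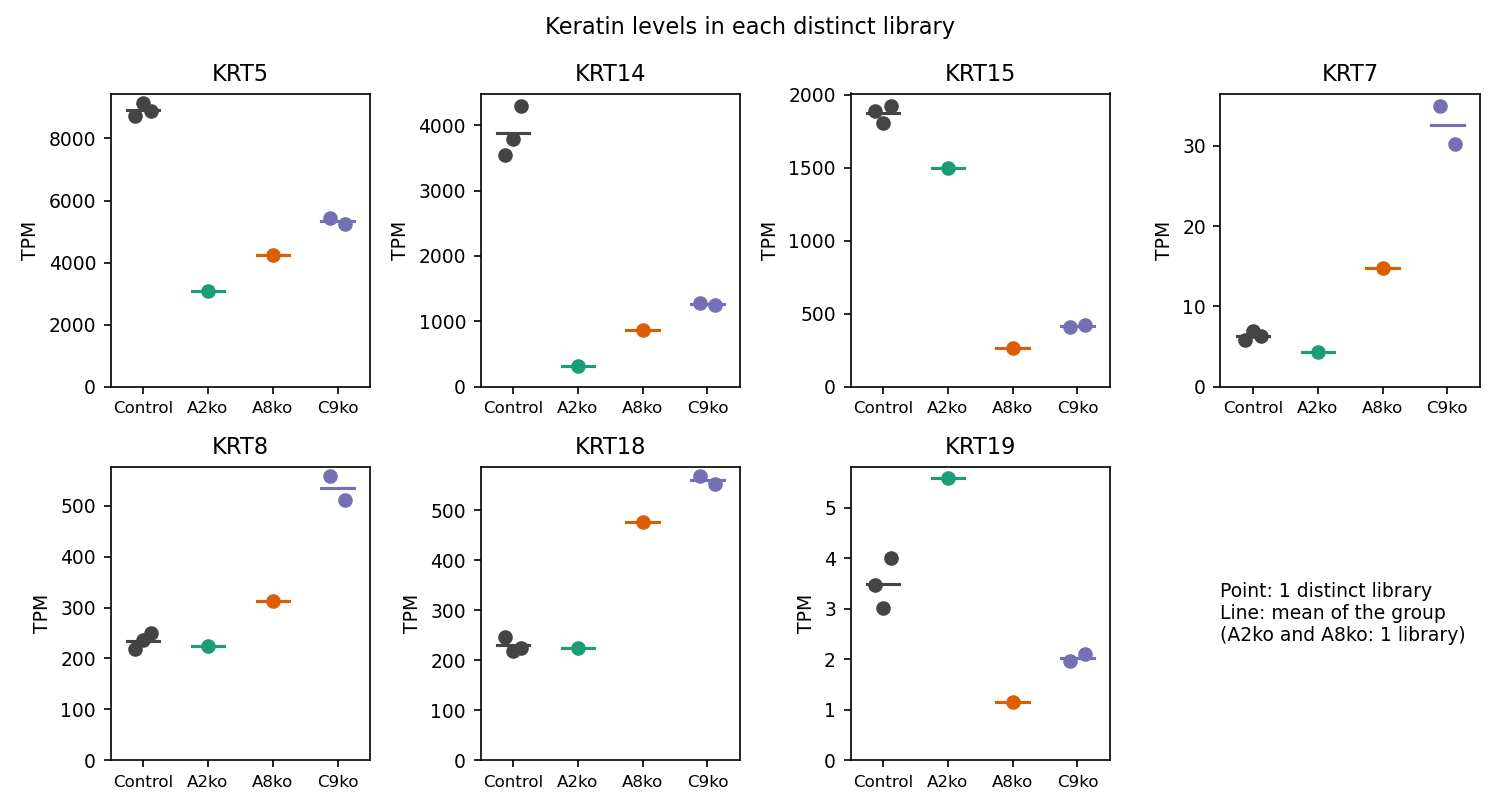
Level of each keratin in TPM (vertical axis, from 0) in each distinct library of Control, A2ko, A8ko and C9ko; points are libraries and horizontal lines are group means. KRT5, KRT14 and KRT15 are below Control in every knockout library, while KRT8 and KRT18 in A2ko, at 224 TPM each, sit within the Control range. The share of all genes with no overlap was not counted.

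In C9ko, which has 2 libraries, all 3 basal keratins fell and 3 of the 4 simple-epithelial keratins rose, KRT19 being the one that fell. Differences below are on the log2(TPM + 1) scale, where the pseudocount of 1 understates the change of low genes, and adjusted p-values are limma's, adjusted over all 17100 tested genes by Benjamini and Hochberg's method. KRT15 fell by 2.17 (SE 0.07, adjusted p = 8.92e-06), KRT14 by 1.61 (SE 0.10, adjusted p = 8.16e-05) and KRT5 by 0.74 (SE 0.09, adjusted p = 0.00119). KRT7 rose by 2.19 (SE 0.10, adjusted p = 3.35e-05), KRT18 by 1.29 (SE 0.07, adjusted p = 6.10e-05) and KRT8 by 1.19 (SE 0.08, adjusted p = 0.000127). KRT19 fell by 0.56 (SE 0.13, adjusted p = 0.0193).

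Against these 7 calls, 22.0% of all tested genes were called higher and 7.42% lower in C9ko, 5038 genes in all. That count was 3301 without C9ko replicate 2. Of the 5038 calls 74.8% were higher, and after the libraries were scaled by the median of ratios 56.3% of 4801 were, since the median difference over all genes was 0.11 as deposited and 0.00 after scaling. All 7 keratins were called in the same direction after that scaling, at -2.29 for KRT15, -1.73 for KRT14, -0.87 for KRT5, -0.65 for KRT19, 1.06 for KRT8, 1.16 for KRT18 and 2.08 for KRT7. The KRT19 call was lost without Control replicate 1 (limma adjusted p = 0.0516), Control replicate 3 (0.0541), C9ko replicate 1 (0.0832) or C9ko replicate 2 (0.0625), and with the replicate number as a block (0.0782). The other 6 calls held in each of these fits.

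In A2ko, set against Control as 1 library, a gene was counted when it was beyond every Control library on one side and differed from the Control mean by 1 log2 unit or more. By that rule 2 of the 7 were lower, KRT14 with a difference of -3.62 and KRT5 with -1.53, and 0 were higher. Over all tested genes 1.53% were lower and 3.54% higher by the same rule. At 0.5 log2 units KRT19 joined with 0.56, as 1 higher keratin, where 16.6% of all genes were higher and 6.26% lower. KRT15 at -0.32 and KRT7 at -0.46 were outside the Control range by less, and KRT8 at -0.06 and KRT18 at -0.04 were within it.

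In A8ko 4 of the 7 were lower by the 1 log2 unit rule, KRT15 with -2.81, KRT14 with -2.16, KRT5 with -1.07 and KRT19 with -1.06. The 2 that were higher were KRT7 with 1.11 and KRT18 with 1.05. Among all tested genes 2.68% were lower and 2.05% higher by that rule. KRT8, at 0.42, was short of both sizes, so the counts at 0.5 log2 units were the same 4 and 2, where 8.47% of genes were lower and 10.4% higher. KRT5, KRT19 and KRT18 stood close to 1 log2 unit, and over the other settings tried 4 to 6 of the 7 were counted.

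**Figure D2:**
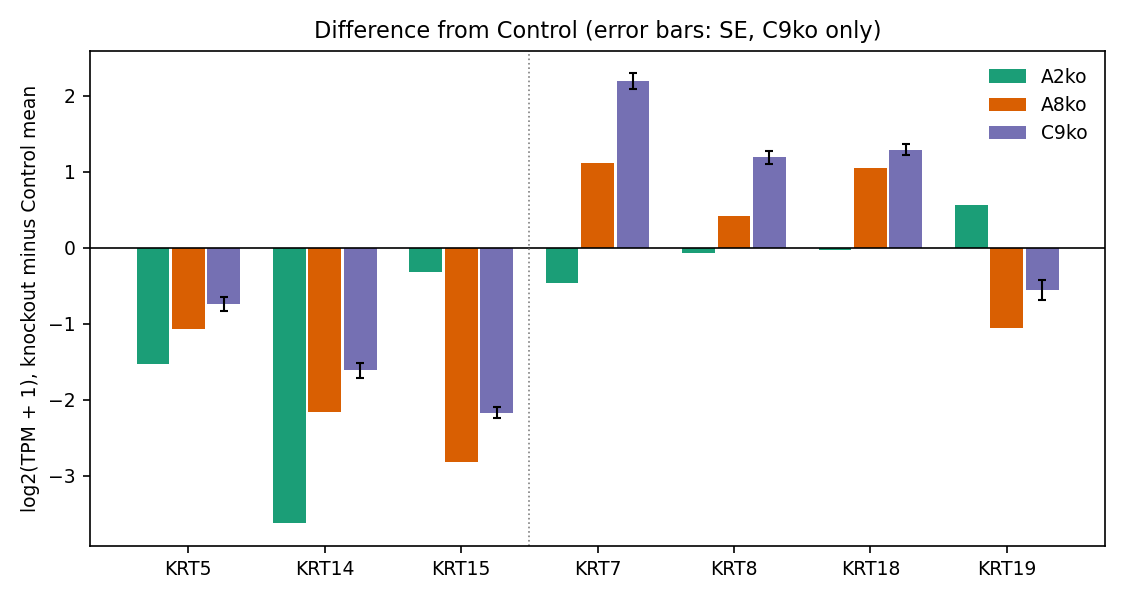
Difference from the Control mean in log2(TPM + 1) (vertical axis) for each keratin in A2ko, A8ko and C9ko, with SE bars for C9ko, which alone has 2 libraries; a dotted line separates basal from simple-epithelial keratins. The basal keratins are below 0 in all 3 knockouts, with KRT14 lowest in A2ko at -3.62 and KRT15 lowest in A8ko at -2.81.

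When the 3 knockouts were taken as 3 values, so that the spread between them counted as error, none of the 7 keratins was called by limma against the 3 Control libraries. At an unadjusted p under 0.05 there were 4, where 2740 of all 17100 tested genes were too. The mean differences were -2.46 for KRT14 (adjusted p = 0.0729), -1.77 for KRT15 (0.213), -1.12 for KRT5 (0.0791) and -0.35 for KRT19 (0.688). They were 0.95 for KRT7 (0.478), 0.77 for KRT18 (0.308) and 0.51 for KRT8 (0.436). Over all tested genes 0.509% were called higher and 0.52% lower, 176 genes in all, of which 49.4% were higher, against 27.8% of 133 after median-of-ratios scaling. Without A2ko 6 of the 7 keratins were called, KRT8 being the exception, and 1993 genes in all. The count of all genes was 67 without C9ko, 11 without Control replicate 1, and 5 without Control replicate 2 or 3.

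The 3 basal keratins together made up most of the keratin message in every library. Their summed level was 14152, 14747 and 15098 TPM in Control, 4891 TPM in A2ko, 5369 TPM in A8ko, and 7122 and 6899 TPM in C9ko. The 3 knockout groups averaged 5757 ± 1112 TPM (SD, n = 3 groups) against 14666 ± 478 TPM (SD, n = 3) in Control. They did not overlap, and a two-sided exact permutation test gave p = 0.1, the smallest that 3 values against 3 allow. In bulk RNA, fewer cells with these keratins and less keratin RNA per cell cannot be told apart.

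The summed level of the 4 simple-epithelial keratins was 473, 466 and 485 TPM in Control. It was 458 TPM in A2ko, 807 TPM in A8ko, and 1166 and 1097 TPM in C9ko, so that A2ko was just below Control and the others were above it (exact permutation p = 0.4, two-sided, n = 3 against 3). All 55 listed keratin genes, of which 26 reached 1 TPM in some library, summed to 17714, 18275 and 18836 TPM in Control. Their sum was 7638 TPM in A2ko, 7133 TPM in A8ko, and 10247 and 9926 TPM in C9ko. The 7 genes held between 70.04% and 86.6% of the keratin total in a library.

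As shares of keratin TPM, the basal keratins took 79.9%, 80.7% and 80.2% in Control, 64.0% of it in A2ko, 75.3% of it in A8ko and 69.5% in each C9ko library. The simple-epithelial keratins took 2.67%, 2.55% and 2.57% in Control, 5.998% in the A2ko library, 11.3% in A8ko and, for C9ko, 11.4% and 11.1%. Both shares had no overlap between knockouts and Control (exact permutation p = 0.1 for each, two-sided, n = 3 against 3, the smallest possible). In A2ko the larger simple-epithelial share went with a lower keratin total and not with a higher simple-epithelial sum.

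The balance within the basal pair shifted, since KRT14 differed more than KRT5 in each knockout. The ratio of KRT5 to KRT14 was 2.46, 2.41 and 2.07 in Control, 9.85 in the A2ko library, 4.89 in A8ko and, for C9ko, 4.23 and 4.20. Every knockout library was above every Control library (exact permutation p = 0.1 on the log2 ratio, two-sided, n = 3 against 3). The ratio of the basal type I keratins KRT14 to KRT15 was 1.88, 2.11 and 2.23 in Control, 3.26 in A8ko, 3.12 and 2.97 in C9ko, and 0.209 in A2ko. A2ko was the library in which KRT15 exceeded KRT14.

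The simple-epithelial pair stayed closer to 1. The ratio of KRT8 to KRT18 was 0.886, 1.08 and 1.12 in Control, 1.003 in the A2ko library, 0.658 in A8ko and, for C9ko, 0.982 and 0.926. A8ko alone lay outside the Control range (exact permutation p = 0.4 on the log2 ratio over 3 knockout groups and 3 Control libraries, two-sided). The type II genes KRT5, KRT7 and KRT8 summed to 1.57, 1.61 and 1.42 times the type I genes in Control and 1.62 times in A2ko. That ratio was 2.83 in A8ko and 2.66 and 2.60 in C9ko.

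**Figure D3:**
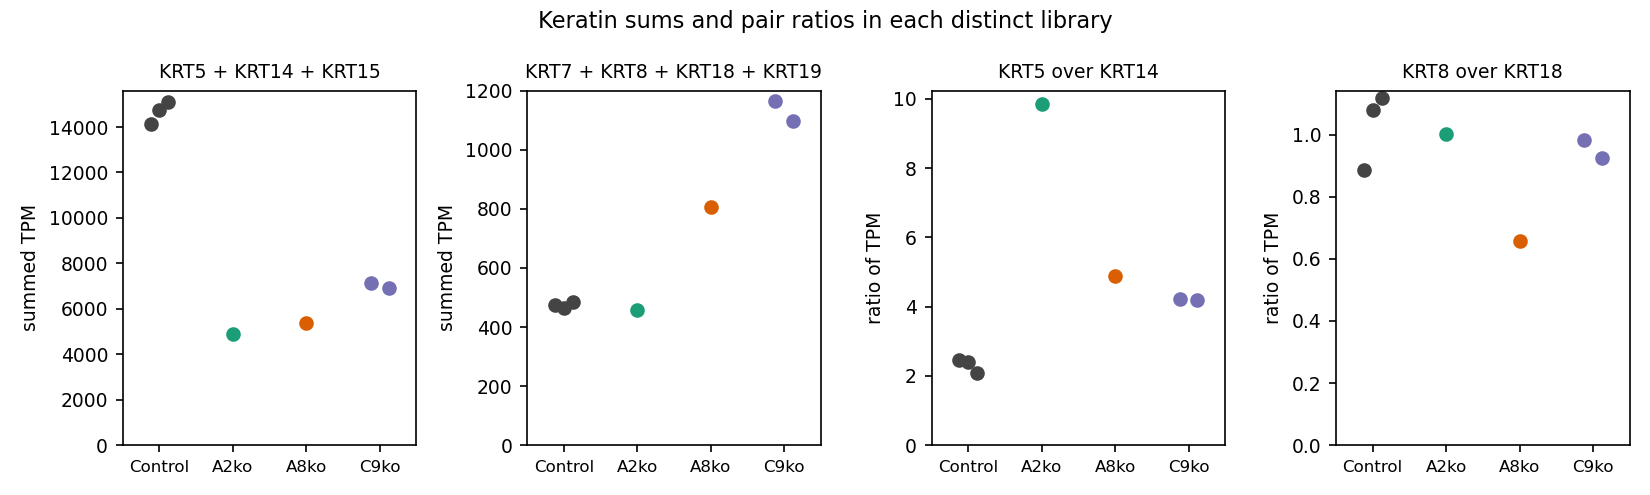
Summed TPM of the basal and of the simple-epithelial keratins and the KRT5 to KRT14 and KRT8 to KRT18 ratios (vertical axes, from 0) in each distinct library; points are libraries. The basal sum is 4891 to 7122 TPM in the knockouts against 14152 to 15098 TPM in Control, and the KRT5 to KRT14 ratio is highest in A2ko at 9.85.

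Along the chromosome 12 cluster, the direction in C9ko changed with position. At one end KRT80, KRT7, KRT86 and KRT81 rose, with differences of 1.90, 2.19, 2.35 and 2.28. The annotated span of KRT86 holds KRT81 and overlaps KRT7 by 2887 bases. Whether these genes share reads was not tested. In the middle lay KRT6B, KRT6C, KRT6A, KRT5, KRT1, KRT3 and KRT4, which were all lower and all called except KRT6B (-0.15, limma adjusted p = 0.150). At the far end KRT8 and KRT18 rose. KRT86 and KRT81, hair keratins, were under 1 TPM in each Control library and reached 7.13 and 7.29 TPM (KRT86) and 4.87 and 5.31 TPM (KRT81) in C9ko. KRT4, a keratin of mucosal suprabasal layers, was at 202, 198 and 197 TPM in Control, 37.7 TPM in A2ko, 0.106 TPM in A8ko, and 1.37 and 0.857 TPM in C9ko.

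The tested genes within 1000000 bases of the 7 keratins, with the other keratin genes left out too, had small median differences in C9ko. Around the chromosome 12 keratins there were 38, with a median difference in C9ko of 0.03, 7 called higher and 6 lower. Their differences ran from -0.56 to 0.88. Around the chromosome 17 keratins there were 35, with a median of 0.09, 7 called higher and 3 lower. Here the differences in C9ko ran more widely, from -2.61 to 0.84. Over all tested genes the median was 0.11.

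**Figure D4:**
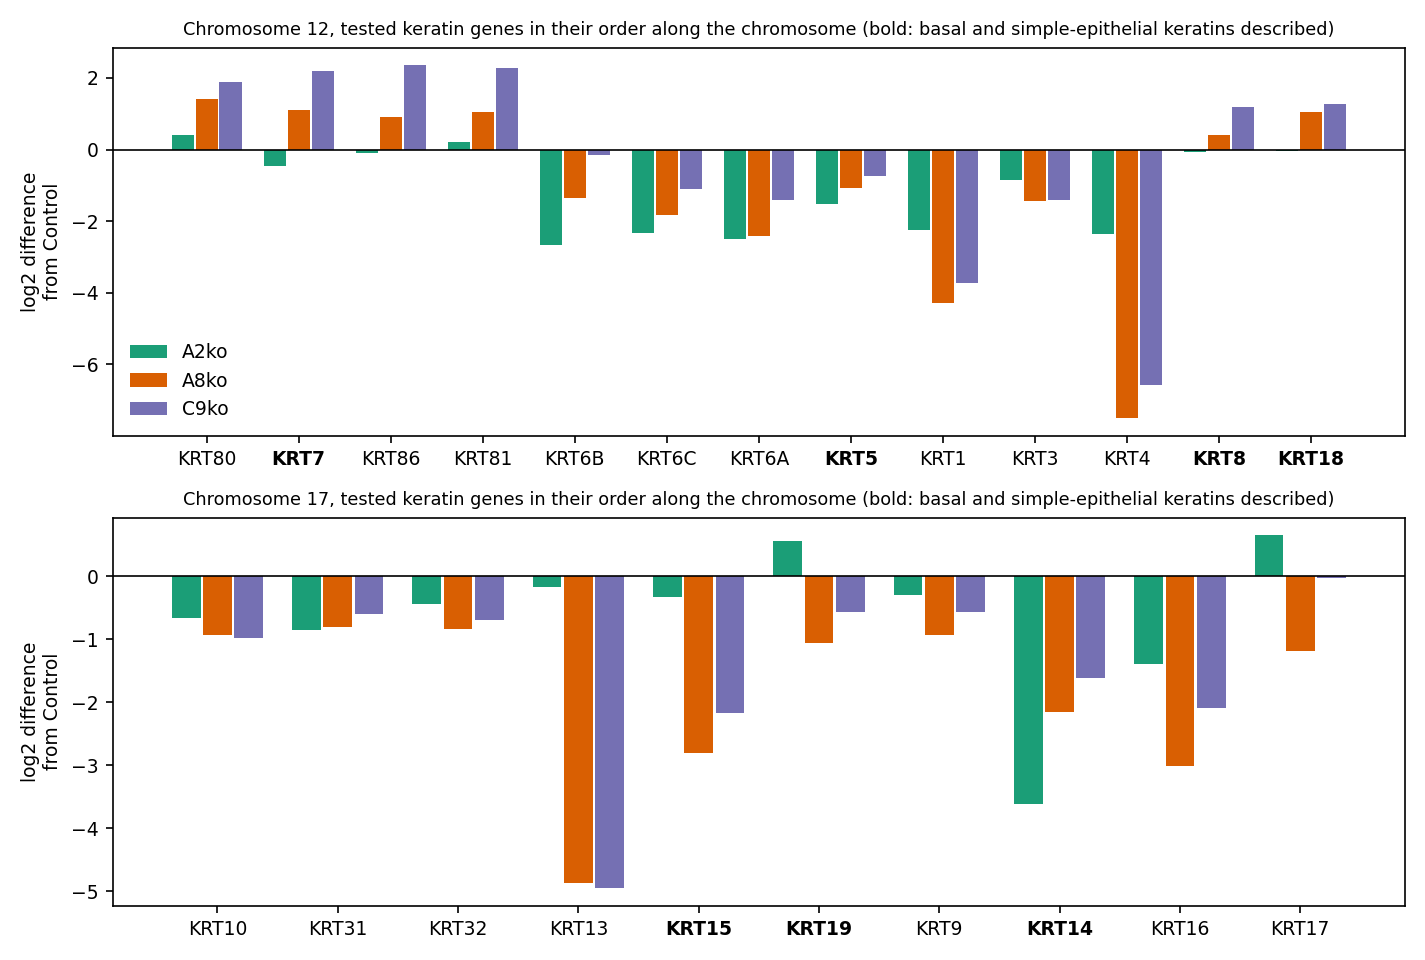
Difference from the Control mean in log2(TPM + 1) (vertical axis) of the tested keratin genes in A2ko, A8ko and C9ko, in their order along chromosome 12 (top) and chromosome 17 (bottom), with no scale of distance. In C9ko the chromosome 12 genes are above 0 at both ends (KRT80 at 1.90, KRT18 at 1.29) and below 0 between KRT6B and KRT4.

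Of the 48 other keratin genes 16 were tested, and in C9ko 3 were called higher and 9 lower by limma, with a median of -0.84 against 0.11 over all genes. The largest falls were those of KRT4 (-6.58), KRT13 (-4.95), the type I partner of KRT4, and KRT1 (-3.73), a suprabasal keratin of the epidermis. The 3 that rose were KRT86, KRT81 and KRT80. After median-of-ratios scaling 3 were higher and 12 lower. Over all knockouts 0 were higher and 4 lower, KRT1 (-3.42, adjusted p = 0.0308), KRT6A (-2.10, adjusted p = 0.0276), KRT6C (-1.75, adjusted p = 0.0483) and, outside the naming rule, KRT10 (-0.86, adjusted p = 0.0276). The KRT6C call was lost under median-of-ratios scaling (adjusted p = 0.0502). By the 1 log2 unit rule 6 were lower and 0 higher in A2ko, and 9 lower and 2 higher in A8ko.

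Of 18 other genes of the basal cell programme, all tested, limma called 9 higher and 3 lower in C9ko, with a median of 0.28. In all knockouts it called 0, and 8 had an unadjusted p under 0.05, as did 2740 of all 17100 tested genes. By the 0.5 log2 unit rule A2ko went mostly the other way, with 2 higher and 6 lower. Over all genes 16.6% were higher and 6.26% lower there. In A8ko 4 were higher and 3 lower, against 10.4% and 8.47% of all genes. ITGB1, the integrin beta 1 subunit, rose by 1.005. DSG3, a desmosomal cadherin of lower epidermal layers, fell by 1.05. TP63, a master transcription factor of the basal lineage, was at 271, 274 and 296 TPM in Control, 194 TPM in A2ko, 265 TPM in A8ko, and 308 and 313 TPM in C9ko. It was not called in C9ko (limma adjusted p = 0.144) or in all knockouts (limma adjusted p = 0.690). In A2ko it was below all Control libraries, with a difference of -0.53. After median-of-ratios scaling 8 were higher and 3 lower.

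Of 18 genes of simple and luminal epithelium 16 were tested, and in C9ko 9 were called higher and 2 lower, with a median of 0.42. Those that fell were RAB25, a GTPase of apical recycling (-1.06), and ELF3, an epithelial ETS factor (-0.91). The largest rise of the 9 was 0.81, and after median-of-ratios scaling 8 were higher and 4 lower. None was called in all knockouts (limma, 9 at an unadjusted p under 0.05, against 2740 of all 17100 tested genes).

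Of 18 genes for proteins that tie keratin filaments to cell junctions or modify them, all tested, 1 was called higher and 7 lower in C9ko, with a median of -0.13, and 1 and 9 after median-of-ratios scaling. PKP1, a desmosomal plakophilin, fell by 2.04, and DSP, the desmoplakin that anchors keratin filaments, by 0.98. These were also the 2 called lower in all knockouts, at -1.79 for PKP1 (limma adjusted p = 0.0276) and -0.96 for DSP (limma adjusted p = 0.0269). DSP was at 182, 167 and 171 TPM in Control, 103 TPM in A2ko, 76.5 TPM in A8ko, and 87.0 and 87.9 TPM in C9ko. These did not overlap, and the share of all genes without overlap was not counted.

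Of 20 transcription factors and other regulators tied to keratin genes, TP63 among them, 18 were tested, and 7 were called higher and 4 lower in C9ko, with a median of 0.25. ZNF750, a factor of keratinocyte differentiation, fell by 1.47, and OVOL1, a zinc finger transcriptional repressor, rose by 1.13. After median-of-ratios scaling 6 were higher and 4 lower. None was called in all knockouts (limma, 7 at an unadjusted p under 0.05, against 2740 of all 17100 tested genes). Of 15 other intermediate filament genes 5 were tested, and 1 was called in C9ko, the nuclear lamin LMNB1 (0.28), a call lost under that scaling (0.16, adjusted p = 0.0660). Under it 1 gene of that list was called lower, LMNA (-0.59, adjusted p = 0.0401), a nuclear lamin too. VIM, the mesenchymal filament gene vimentin, was at most 3.12 TPM, in A8ko.

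Markers of other cell types were measured beside the keratins, and their part in the results was not tested. Fibroblast markers summed to 10.8 to 12.3 TPM in Control, 17.7 TPM in A2ko, 7.43 TPM in A8ko, and 11.1 and 11.9 TPM in C9ko, with 6 of 9 under 1 TPM in every library and COL3A1 at 0. Of the 3 tested in C9ko, LUM fell by 1.11 (limma adjusted p = 0.00128) and COL1A1 rose by 0.35 (limma adjusted p = 0.0323), a call lost after median-of-ratios scaling (adjusted p = 0.0665). Endothelial markers summed to 3.63 to 4.66 TPM in Control, 13.2 TPM in A2ko, 8.67 TPM in A8ko, and 22.3 and 30.3 TPM in C9ko. Nearly all of that was CDH5, which rose by 2.51 in C9ko, while the other 5 of 6 were under 1 TPM in every library and KDR was at 0. Leukocyte markers summed to 42.9 to 51.1 TPM in Control, 60.5 TPM in A2ko, 83.8 TPM in A8ko, and 68.2 and 66.7 TPM in C9ko, with CD14 higher (1.66) and CD68 lower (-1.01) in C9ko. That sum was above the levels of KRT7 and KRT19 in every library. PTPRC, the defining leukocyte marker, was at most 0.0232 TPM, and 4 of 7 were under 1 TPM in every library.

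Some keratin values can include sequence of other genes, and the use of strand in the authors' quantification is not given in the sources used here. KRT8 and KRT18 overlap by 1084 bases on opposite strands. KRT7 overlaps its antisense gene KRT7-AS by 2401 bases, the pseudogene KRT87P by 1721 bases on the other strand, and KRT86 by 2887 bases on its own strand. KRT7-AS was listed at no more than 24.2% of the KRT7 level in a library. MIR6510, which lies within KRT15, was at 31.2, 43.1 and 38.0 TPM in Control, 89.2 TPM in A2ko, 3.83 TPM in A8ko, and 3.56 and 7.60 TPM in C9ko.

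Near-identical copies concern KRT14, KRT18 and KRT8 most. Of the 50-base words in their transcripts, 16.8% of those of KRT14 (7.89% with KRT16), 14.3% of those of KRT18 and 10.1% of those of KRT8 also occur in other genes. The share was 2.17% for KRT5, 0.977% for KRT19, 0.642% for KRT15 and 0.399% for KRT7. The 51 KRT8 pseudogenes, 27 of them above 0 in some library, summed to at most 1.37% of the KRT8 level, and the 68 of KRT18, 29 above 0, to at most 0.911% of the KRT18 level. The 5 KRT19 pseudogenes were at 0.

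Over the 7 distinct libraries the keratins fell into pairs of like pattern, described by Pearson's r of log2(TPM + 1) with no test, since the libraries share groups and each value is a share of the same total. KRT5 and KRT14 had r = 0.994, KRT7 and KRT8 0.982, KRT7 and KRT18 0.960, and KRT8 and KRT18 0.924. KRT15 was less like its basal companions (0.516 with KRT5, 0.444 with KRT14) than like KRT19 (0.868), and ran against KRT18 (-0.948).

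Among 3730 genes with a mean of at least 5 TPM and an SD of at least 0.25 over the libraries, the 2 closest to each keratin were named. For KRT5 they were KRT6C (r = 0.994) and THBD (0.990), and for KRT14 THBD (0.996) and SPRR1B (0.993). For KRT15 they were KLF5 (0.998) and the unnamed identifier ENSG00000277196 (0.997), and for KRT19 CELSR2 (0.991) and RCOR1 (0.986). For KRT7 they were ARIH2 (0.996) and ELK3 (0.993), for KRT8 EMC3 (0.997) and ATG7 (0.996), and for KRT18 VGLL2 (0.998) and ENSG00000234692 (0.997). ARIH2, EMC3 and ATG7 lie on chromosome 3 in the annotation, and the other genes named here lie elsewhere. The share of the 3730 genes on chromosome 3 was not counted. THBD, the thrombomodulin gene, was at 47.2, 46.5 and 46.4 TPM in Control, 8.64 TPM in A2ko, 18.2 TPM in A8ko, and 20.8 and 22.7 TPM in C9ko. This is the order of groups of KRT14, which follows from the choice of THBD by its likeness to KRT14 over the same libraries.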

How the data were processed

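RNA sequencing of CAL27 cells was deposited as 1 table of TPM per sample, computed by the authors per gene identifier. Per the labels' protocols, libraries were made by a dUTP method from 2 ug of total RNA, taken with TRIzol. The submitters' processing notes name hg38. The aligner, quantifier, annotation and use of strand are not given in the sources used here. The depth per sample is unknown, and the number of libraries limits the precision.

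The 7 genes and all gene lists were chosen with earlier results of these data known, so counts over them are descriptions. TPM were analysed as log2(TPM + 1). Genes with at least 1 TPM in at least 2 distinct libraries were tested, 17100 in all. limma 3.58.1 in R 4.3.3 fitted the 4 groups together (lmFit, a contrast of C9ko with Control, eBayes with trend), and calls were made at an adjusted p under 0.05. All knockouts were compared as 3 group values with 3 Control libraries in a separate fit. A2ko and A8ko, with 1 library each, were compared by the Control range and a size of 1 or 0.5 log2 units. Sums, shares and ratios were compared by exact permutation. The fits were tested on simulated data in which all knockouts shared the same shift. That check does not cover a spread between knockouts such as the one seen here.

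Genes named from each list and contrast were those called with at least 5 TPM in the higher group and at least 1 log2 unit, at most 4 by size, or the 2 largest called where fewer than 2 passed. A gene that this rule names is not reported here. KRT80, KRT81, KRT3, KRT6B, KRT10, LMNA, TP63, VIM, COL3A1, KDR and PTPRC were named by position, role or level, outside that rule. Alternatives were pseudocounts of 0.1 and 5, other filters, other scalings, all 9 files as separate libraries, eBayes without trend, a replicate block and leaving out each library or knockout group.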

Additional observations from a re-analysis of the deposited data

Results flagged for a closer look

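For KRT7 the knockouts lay on both sides of Control, with A8ko and C9ko above all Control libraries and A2ko below them. The highest and lowest knockout groups were 2.65 log2 units apart. A difference from Control as large as that of KRT7 in A2ko was seen in 26.5% of tested genes. The difference between knockouts was not tested, since A2ko and A8ko have 1 library each.

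KRT19 split the opposite way, with A2ko above all Control libraries and A8ko and C9ko below them. The knockout groups spanned 1.61 log2 units, at levels of 1.15 to 5.59 TPM, and this difference was not tested either.

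The summed simple-epithelial keratins were higher than all Control libraries in A8ko and C9ko and lower in A2ko, with 673 TPM between the highest and lowest knockout group. This was not tested, and A2ko, at 458 TPM, was close to the lowest Control library at 466 TPM.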

How the results depend on the processing

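None of the 7 keratins changed direction in C9ko or in all knockouts under the alternatives run for them. Neither did the basal and simple-epithelial sums and shares or the KRT5 to KRT14 and KRT8 to KRT18 ratios, in all knockouts. For A2ko and A8ko only the counts of keratins were rerun, and the other ratios were not rerun. The gene lists were rerun under the 3 scalings alone. In C9ko 6 or 7 of the 7 keratins were called in each of 16 alternatives, and the calls of KRT5, KRT14, KRT15, KRT7, KRT8 and KRT18 held in all 16. KRT19 was called in 9 of 15 and was not tested at a mean of at least 5 TPM. With no filter on low values its adjusted p was 0.0821, where 42643 genes were tested. With the replicate number as a block (replicate block, Control and C9ko only) 6 keratins were called and 3248 genes, against 5038. Same-numbered Control and C9ko libraries did not deviate together (r = -0.0372 over genes, 2 pairs), so the numbers were not taken to pair samples. Counting all 9 files as separate libraries gave 8166 calls in C9ko.

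For all knockouts the count of keratins called was 0 and became 6 with the average of 3 coefficients in the fit of 4 groups, which does not count the spread between knockouts as error, and 6 without A2ko. The first of these called 4361 genes in all, and the fit with no filter called 23. Leaving out each Control or C9ko library in turn gave 0 keratins each time in all knockouts and 5 to 165 genes, and 6 to 7 keratins in C9ko. Over the alternatives 2 to 3 keratins were counted in A2ko and 4 to 6 in A8ko. TPM hold no depth, so counting error could not be given for KRT7 and KRT19, the lowest of the 7.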
